A study of Homo sapiens with 12 samples.

Results

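Selenoproteins carry selenocysteine, the selenium analogue of cysteine, which the ribosome inserts at a UGA codon with the help of a hairpin in the mRNA. The genes described are SEPP1, SEPW1, SEPN1, GPX1, GPX2, GPX3, GPX4, TXNRD1 and TXNRD2. They are 9 genes that encode selenoproteins, among them the selenocysteine-containing glutathione peroxidases. The gene probes whose name equals a listed symbol were taken, which gave 10 of the 41000 gene probes on the array, with 1 probe for each of 8 genes and 2 probes for SEPN1. SEPP1 was selected on measured ratios of these same arrays, and the set was drawn up around it with the values of all 3 comparisons known. Ratios of the 9 genes are therefore given as a description, with no test.

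The cells were of Rh30, an alveolar rhabdomyosarcoma line that carries PAX3-FKHR, a fusion of the paired box and homeodomain transcription factor PAX3 to the transactivation part of FKHR (FOXO1). WT is the untransfected parental line, grown without puromycin. CON is a clone with a non-targeting shRNA, and KD1 is a clone with an shRNA against PAX3-FKHR, both grown with 1 μg/mL of puromycin. RNA was extracted 24 h after plating, and 500 ng of it was labeled. Each comparison, KD1 vs CON, KD1 vs WT and WT vs CON, had 2 biological replicates, each hybridized as a dye-swap pair, so that 12 arrays held 6 RNA extracts. KD1 and CON are 1 clone each, so the knockdown and differences between clones cannot be told apart, and the treatment with puromycin cannot be told apart from transfection when a clone is compared with WT. The 4 arrays of WT vs CON lay on 1 slide, and in the KD1 comparisons replicate 1 lay on the second slide and replicate 2 on the third.

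Glutathione peroxidases reduce hydrogen peroxide and lipid peroxides with glutathione, and thioredoxin reductases keep thioredoxin reduced with NADPH. SEPP1 (selenoprotein P, now SELENOP) is secreted, mostly by the liver, and carries selenium to other tissues in its many selenocysteines. In muscle the best known selenoproteins are SEPN1 (now SELENON), whose loss causes congenital muscle disease, and SEPW1 (now SELENOW), a small thioredoxin-like protein that is abundant in myoblasts.

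The sequences that bear on the largest ratios are shown first. All 9 genes were matched to RefSeq (GRCh38.p14) and have an upstream window in its promoter table. PAX3-FKHR keeps the paired domain and homeodomain of PAX3, and homeodomains bind the core word ATTA, so the 250 bases before the SEPP1 start are printed on the minus strand (chr5:42811893-42812142, GRCh38.p14), with every ATTA of either strand in capitals, together with the start of the probe that reports SEPP1 and the whole probe that reports GPX4.
SEPP1 upstream: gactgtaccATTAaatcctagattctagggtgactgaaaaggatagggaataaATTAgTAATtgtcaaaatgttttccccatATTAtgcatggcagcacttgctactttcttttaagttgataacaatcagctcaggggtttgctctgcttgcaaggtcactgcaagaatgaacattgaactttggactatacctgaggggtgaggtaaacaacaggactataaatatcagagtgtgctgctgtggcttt
SEPP1 probe, first 30 bases: cgtaaactatgacctaggggttttctgttg
GPX4 probe: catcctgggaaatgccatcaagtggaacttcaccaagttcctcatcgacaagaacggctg

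The SEPP1 window holds 4 matches to ATTA, which begin 241, 197, 192 and 168 bases before the start. Of all 35116 windows of this length, 47.4% hold at least 1 match and 10.4% hold 4 or more. Of the 14 windows of the 9 genes, 4 hold ATTA, which are those of SEPP1 and GPX2 and 1 each of TXNRD1 and TXNRD2. The SEPP1 window also holds 1 match to a set of 4 paired-domain words (GTTCT as the first, GTTCC as the second, GTTAT as the third and GTTAC as the last, on either strand), which 71.1% of all windows hold, and 1 match to GTAAACA, a word bound by forkhead proteins, 45 bases before the start, which 2.98% of all windows hold and none of the other 13 windows of these genes. A match is a stretch of letters and not a binding site.

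SEPP1 had the largest ratios of the 9 genes, and it was well above background in the parental cells and at background in the knockdown clone. Its probe (A_23_P121926, chr5:42835661-42835696 on NCBI36, from base 1528 of the listed transcript) had normalised signals of 302 and 83.9 in the 2 extracts of WT, of 15.1 and 59.2 in CON, and of 3.70 and 6.46 in KD1. The listed position of this probe spans 36 bases for a probe of 60. The 3 cultures did not overlap, although replicate 2 of CON and of WT lay close together. The probe was well above background on all 8 channel measurements of WT, on 6 of 8 of CON and on 0 of 8 of KD1, where 3 values were surrogates set by the scanner software. Its level in KD1 is thus a bound only, and the SEPP1 signal of CON was at least 2.11-fold higher and that of WT at least 11.3-fold higher.

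The SEPP1 log2 ratio of KD1 vs CON was −2.45 in replicate 1 and −3.23 in replicate 2, with a mean of −2.84 ± 0.55 (SD, n = 2). All 4 arrays were below 0, but 2 of the 4 were above the limit set by the negative controls, so the probe was not tested there. In KD1 vs WT the log2 ratio was −6.16 and −3.62, with a mean of −4.89 ± 1.80 and single arrays from −7.01 to −2.87. In WT vs CON it was 4.47 in replicate 1 and 0.80 in replicate 2, so that the mean of 2.63 was as large as its SD of 2.59 and rested mainly on replicate 1. The direction was the same on all arrays of each comparison, whereas the size differed several-fold between replicates in the comparisons with WT. With normexp background correction and loess in place of the authors' normalization, the 3 SEPP1 log2 ratios were −0.24, −1.11 and 0.94 in the same order, each with its sign kept. In bulk RNA, fewer cells that express a gene and less RNA per cell cannot be told apart.

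**Figure D1:**
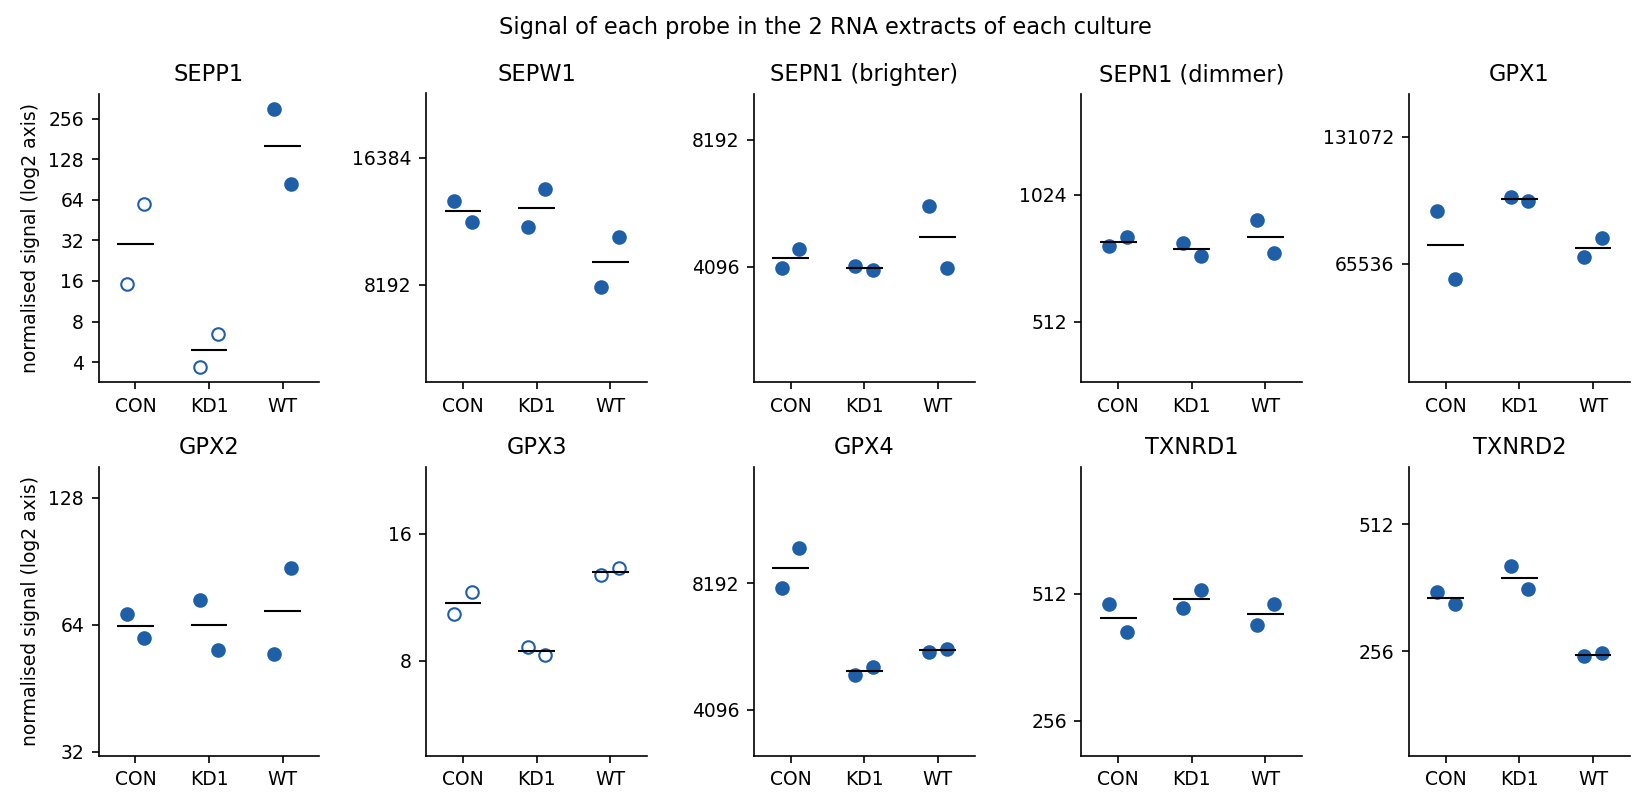
Normalised signal (log2 axis) of the 10 probes in each of the 2 RNA extracts of CON, KD1 and WT, with a line at the geometric mean; open points mark cultures in which the probe was not well above background on all 8 channel measurements. SEPP1 falls from 302 and 83.9 in WT to 3.70 and 6.46 in KD1, while GPX4 is highest in CON and TXNRD2 lowest in WT.

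The 2 selenoproteins tied to muscle had small ratios. SEPW1 (A_23_P27724, chr19:52979639-52979698) was well above background in every measurement, with signals of 11238 and 13852 in KD1, 12940 and 11577 in CON and 8096 and 10609 in WT. Its log2 ratio of KD1 vs CON was −0.23 and 0.31, so the replicates had opposite signs. In KD1 vs WT both were above 0 (0.47 and 0.42, mean 0.45 ± 0.03), as were all 4 arrays, and WT was the culture with the lowest SEPW1. SEPN1 has 2 probes, A_23_P370625 (chr1:26017129-26017188) and the dimmer A_24_P231250 (chr1:26016208-26016267). Their mean log2 ratios were −0.10 ± 0.19 and −0.07 ± 0.19 for KD1 vs CON. For KD1 vs WT they were −0.24 ± 0.31 and −0.14 ± 0.10, and for WT vs CON 0.17 ± 0.43 and 0.06 ± 0.22. The 2 SEPN1 probes thus had the same sign in each comparison, and every mean except that of the dimmer probe in KD1 vs WT was within its SD of 0.

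Among the glutathione peroxidases, GPX4, which reduces phospholipid hydroperoxides in membranes, had the steadiest ratios, and its high culture was CON. The GPX4 probe (A_23_P28075) lists chr19:1056797-1057421, a span of 625 bases for a probe of 60, and was well above background throughout. GPX4 signals were 7982 and 9938 in CON, 4956 and 5176 in KD1 and 5626 and 5718 in WT. CON lay above both other cultures in each extract, and KD1 and WT lay close to each other. The GPX4 log2 ratio of KD1 vs CON was −0.65 and −0.83 (mean −0.74 ± 0.13, 1.67-fold lower), with all 4 arrays below 0. WT vs CON had the same sign, at −0.50 and −0.67 (mean −0.59 ± 0.12), again on all 4 arrays. KD1 vs WT was −0.17 and −0.14 (mean −0.16 ± 0.02), with single arrays from −0.47 to 0.19. Most of the GPX4 difference between KD1 and CON was thus also present between the parental cells and CON.

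GPX1, the abundant cytosolic glutathione peroxidase (A_23_P250671, chr3:49369625-49369684), had signals of 94644 and 92151 in KD1, 87628 and 60305 in CON and 67953 and 75382 in WT. KD1 was the highest culture in both extracts. The GPX1 log2 ratio was 0.13 and 0.65 in KD1 vs CON (mean 0.39 ± 0.37), 0.49 and 0.37 in KD1 vs WT (mean 0.43 ± 0.08) and −0.36 and 0.37 in WT vs CON (mean 0.01 ± 0.52), so that only the comparison with WT had replicates close together. GPX2, the form known from the gut epithelium (A_23_P3038, chr14:64476149-64476208), was dim but well above background, with signals between 54.5 and 87.03 in the 6 extracts. Its mean log2 ratio was 0.14 ± 0.02 for KD1 vs CON, where 3 of 4 arrays passed the limit. For KD1 vs WT it was −0.05 ± 0.67 and for WT vs CON 0.18 ± 0.37. GPX3, the secreted plasma form (A_23_P133474, chr5:150388052-150388111), was not well above background on any measurement of KD1 or CON and was so on 1 of 8 of WT. Its signals lay between 8.26 and 13.3, its log2 ratios of −0.35, −0.83 and 0.10 compare background with background, and no fold is given.

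Of the thioredoxin reductases, the mitochondrial TXNRD2 was lowest in the parental cells and the cytosolic TXNRD1 was nearly level. TXNRD2 (A_23_P102988, chr22:18250915-18250974) had signals of 407 and 359 in KD1, 354 and 332 in CON and 249 and 253 in WT. WT lay below both clones in each extract. The TXNRD2 log2 ratio of KD1 vs WT was 0.73 and 0.47 (mean 0.60 ± 0.19, 1.52-fold higher), above 0 on all 4 arrays, and that of WT vs CON was −0.46 and −0.31 (mean −0.38 ± 0.11), below 0 on all 4. In KD1 vs CON it was 0.23 and 0.17, but the 4 single arrays went from −0.09 to 0.55, with both values below 0 on the arrays with KD1 in Cy5 and both above 0 on the exchanged ones, so its sign there followed the dyes. TXNRD1 (A_23_P204581, chr12:103266763-103266822) had signals between 415 and 522 in the 6 extracts. Its mean log2 ratio was 0.04 ± 0.13 for KD1 vs CON, and it was 0.16 ± 0.01 for KD1 vs WT and −0.06 ± 0.18 for WT vs CON. The TXNRD1 SD of 0.01 understates the error, since the 4 single arrays of KD1 vs WT went from −0.66 to 0.95.

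**Figure D2:**
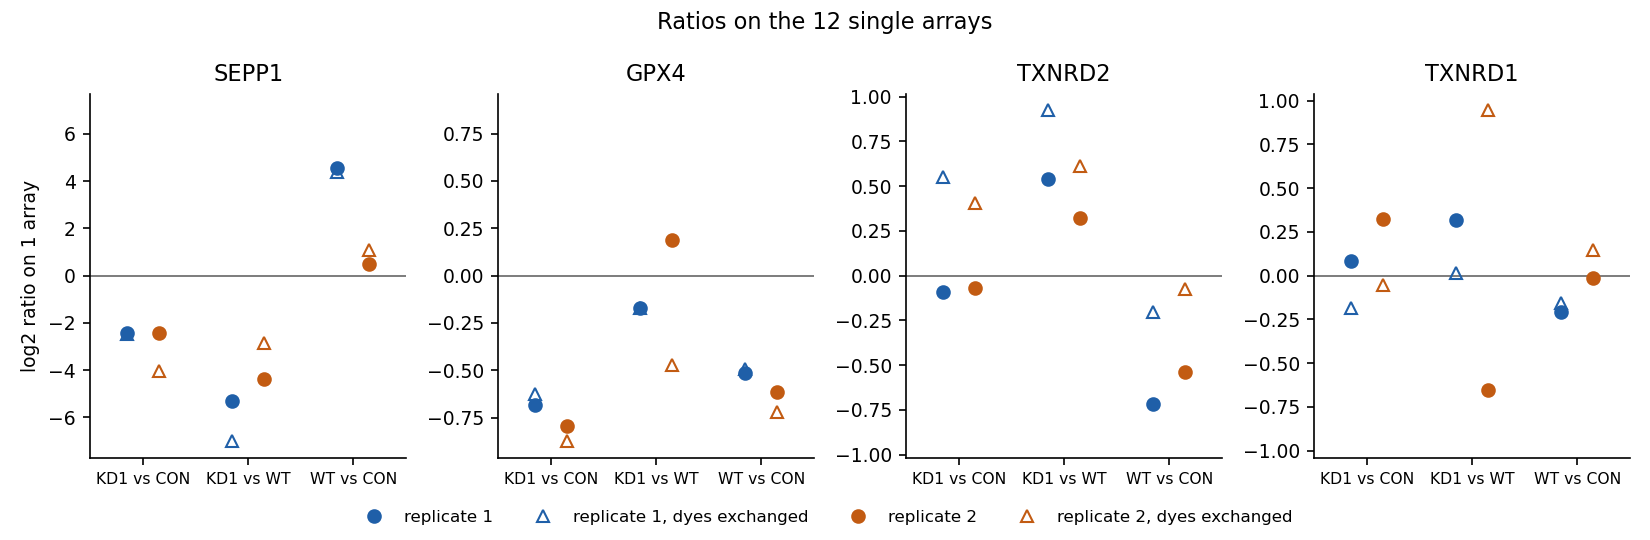
Log2 ratio on each of the 12 arrays (y axis, a different scale in each panel) for SEPP1, GPX4, TXNRD2 and TXNRD1 in the 3 comparisons (x axis), with colors for the replicate and open triangles for arrays with the dyes exchanged. SEPP1 keeps its sign on all arrays of a comparison, GPX4 does so in KD1 vs CON and WT vs CON, and the TXNRD1 arrays of KD1 vs WT run from −0.66 to 0.95.

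Apart from SEPP1, no member probe reached a mean of 2-fold in any comparison. In KD1 vs CON the means of the other 9 probes went from −0.74 to 0.39, in KD1 vs WT they went from −0.83 to 0.60 and in WT vs CON from −0.59 to 0.18. The −0.83 is that of GPX3, which was at background, and the next lowest mean in KD1 vs WT was −0.24 (SEPN1). The 2 replicates had the same sign for 4, 8 and 4 of the 9 probes, of which 7, 8 and 8 were tested. The median absolute log2 ratio of the 9 probes, those not tested included, was 0.14, 0.24 and 0.17. Over all probes tested it was 0.23, 0.25 and 0.24, and 3.99%, 4.76% and 4.57% of those reached 2-fold. The WT vs CON ratio can also be computed from the KD1 comparisons, as KD1 vs CON minus KD1 vs WT, on other slides but with the same extracts. For the 16 replicate values of the probes other than SEPP1 and GPX3, the measured and computed ratios differed by at most 0.20 on the log2 scale. The 2 probes left out were further apart. SEPP1 was measured at 4.47 and 0.80 in replicates 1 and 2 and computed at 3.71 and 0.40. GPX3 was measured at 0.14 and 0.05 and computed at 0.91 and 0.06.

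**Figure D3:**
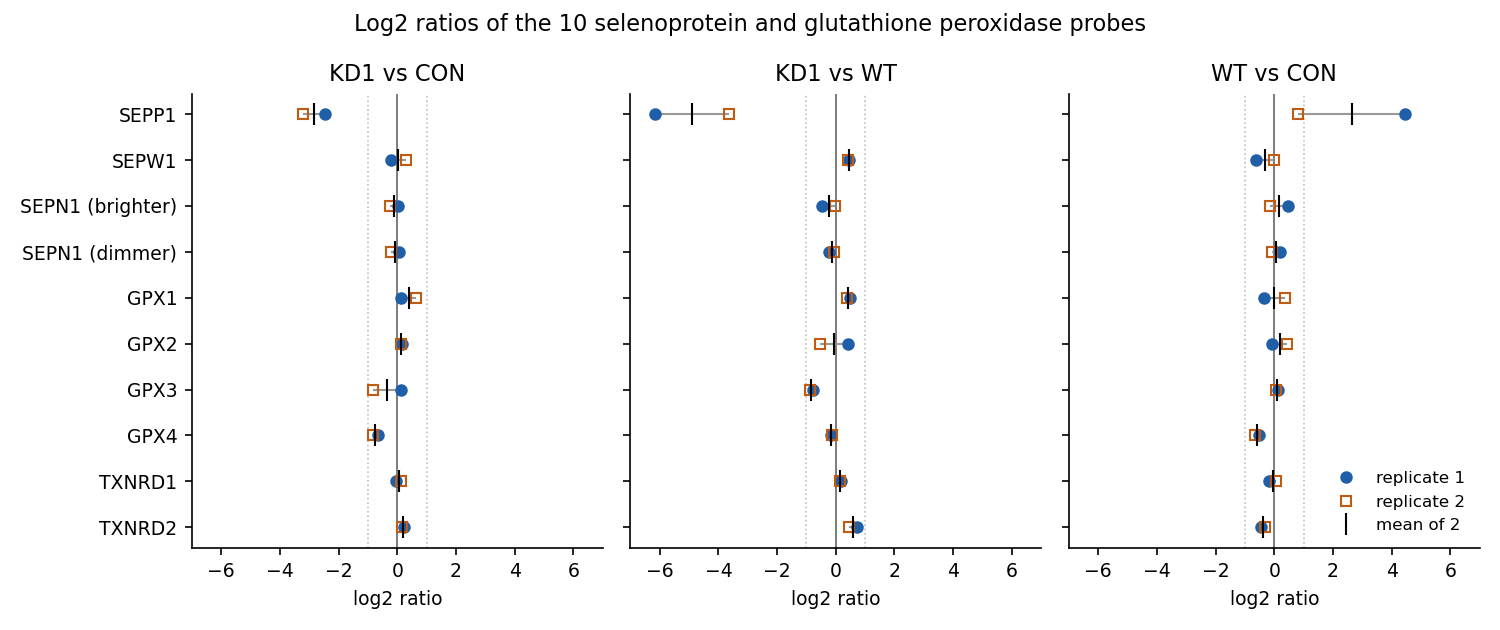
Log2 ratio (x axis) of the 10 probes in each of the 3 comparisons, with a filled circle for replicate 1, an open square for replicate 2 and a bar at their mean; dotted lines mark 2-fold. By its mean SEPP1 lies beyond 2-fold in the 3 comparisons, although replicate 2 of WT vs CON is at 0.80, inside the dotted lines, and no other probe has a mean beyond them.

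Over all probes, limma called 396 of 21925 tested in KD1 vs CON (1.81%), 272 of 24860 in KD1 vs WT (1.09%) and 377 of 26566 in WT vs CON (1.42%) at an adjusted p of 0.05. A fit to 1 value per extract, without the replicate block, called 201, 126 and 114. An unadjusted p under 0.05 was reached by 17.2%, 17.2% and 16.5% of the probes tested. The study's methods select genes by a mean change of 2-fold in both KD1 comparisons, the same direction within dye swaps, and a signal above the negative controls in at least 1 channel, without stating on how many arrays. Here the direction had to be the same on every array. With the limit on at least 1 array, 220 of 25566 genes were lower in KD1 (0.861%), and SEPP1 was the only one of the 9 genes among them, as follows from the ratios it was selected on. In a stricter form set here, with the limit on every array, 147 of 15715 genes were lower (0.935%), and SEPP1 was not among them because 2 of its arrays missed the limit. The genes with ratios most like those of SEPP1, by the root mean square difference over the 6 replicate log2 ratios among 26207 probes, were CDH6 (0.99), EYA2 (1.04) and FBN2 (1.11). EYA2 had the opposite sign to SEPP1 in replicate 2 of WT vs CON (−0.95 beside 0.80). For 4 of the 6 SEPP1 ratios KD1 was at background, so the distances to SEPP1 depend on the background level. Those most like GPX4 were C16orf75 (0.03), TCEAL1 (0.06) and MAMSTR (0.06).

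The other selenoproteins had mostly small ratios. Of 14 such genes on the array, 9 could be tested, and limma called 0 in each comparison, beside 1.81%, 1.09% and 1.42% over all probes, shares at which 9 genes would hold few calls. An unadjusted p under 0.05 was reached by 2, 1 and 1 of the 9, beside 17.2%, 17.2% and 16.5% over all probes. Their median log2 ratio was 0.09, −0.09 and 0.10, beside −0.01, 0.01 and −0.03 over all probes. SEPX1, a reductase of oxidized methionine, had the largest ratio in KD1 vs CON, and its signals were 4539 and 3457 in KD1, 7811 and 7190 in CON and 5928 and 5272 in WT. The cultures did not overlap, and the log2 ratio of −0.85 ± 0.12 (limma adjusted p = 0.0827) was near the −0.77 ± 0.15 of a second SEPX1 probe. SELI, an ethanolamine phosphotransferase, was at 0.79 ± 0.03 in KD1 vs CON (limma adjusted p = 0.0999) and at 0.95 ± 0.18 in WT vs CON on its brighter probe, beside 0.21 ± 0.20 and 0.32 ± 0.06 on the other. DIO2, which activates thyroid hormone, was at 0.61 ± 0.05 in KD1 vs CON (limma adjusted p = 0.323). SELM, a thioredoxin-like protein of the endoplasmic reticulum, was well above background on 0 of 8 KD1 measurements and could not be tested.

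For the machinery that makes and decodes selenocysteine, PSTK had the largest ratio. Of its 10 genes 9 could be tested, limma called 0 in each comparison (1.81%, 1.09% and 1.42% over all probes), and 3, 3 and 2 had an unadjusted p under 0.05 (17.2%, 17.2% and 16.5% over all probes). The median log2 ratio was 0.23, 0.17 and 0.07. PSTK, the kinase that phosphorylates the seryl-tRNA on the way to selenocysteine, had signals of 517 and 693 in KD1, 416 and 346 in CON and 188 and 286 in WT. Its log2 ratio of 1.40 ± 0.05 in KD1 vs WT did not pass the threshold (limma adjusted p = 0.0519), and in KD1 vs CON it was 0.68 ± 0.47 (limma adjusted p = 0.206). In KD1 vs CON, SCLY, which recovers selenium from selenocysteine, was at 0.58 ± 0.11. SECISBP2, which binds the hairpin of selenoprotein mRNAs, was at −0.54 ± 0.17. SEPHS1, a selenophosphate synthetase homolog, was at 0.35 ± 0.17 on its brightest probe. Further SEPHS1 probes were at 0.34 ± 0.23 and −0.23 ± 0.46, so they differed in sign. None of these genes passed the threshold.

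Among the glutathione peroxidases without selenium and the other enzymes that remove peroxides and superoxide, 2 genes were lower in KD1 than in WT and 1 was higher in WT than in CON. Of 13 genes 10, 12 and 12 could be tested, and limma called 0 in KD1 vs CON, 2 lower in KD1 vs WT and 1 higher in WT vs CON, beside 1.81%, 1.09% and 1.42% over all probes. At an unadjusted p under 0.05 were 2, 4 and 3 of them, beside 17.2%, 17.2% and 16.5%, and their median log2 ratios were 0.09, −0.15 and 0.39. GPX7, a cysteine-containing peroxidase of the endoplasmic reticulum, had signals of 814 and 169 in WT, 4.76 and 5.16 in CON and 4.64 and 5.64 in KD1. This probe stood well above background on 8 of 8 measurements of WT and on none of either clone, and WT was at least 26.3-fold higher than KD1 and at least 24.4-fold higher than CON. GPX7 passed the filter through WT alone, so its fitted log2 ratios and their p-values set WT against background. They were −5.88 ± 1.75 in KD1 vs WT (limma adjusted p = 0.00383) and 6.23 ± 1.11 in WT vs CON (limma adjusted p = 0.00257), and the second GPX7 probe had −3.58 and 3.47. As with SEPP1, replicate 1 of WT was brighter than replicate 2, but unlike SEPP1, GPX7 was at background in CON as well.

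PRDX2, a cytosolic peroxiredoxin, had signals of 42.5 and 51.2 in WT, 16.4 and 37.8 in CON and 5.26 and 4.12 in KD1, and was well above background on 8, 6 and 0 of 8 measurements. The WT signal was at least 3.31-fold higher than that of KD1, and PRDX2 too passed the filter there through WT alone, so that the fitted log2 ratio of −3.26 ± 0.47 (limma adjusted p = 0.00668) is one against background. Against CON, where PRDX2 could not be tested, the KD1 signal was at least 1.77-fold lower. A second PRDX2 probe was not well above background in any culture. With normexp and loess, the KD1 vs WT log2 ratio was −1.70 for GPX7 (limma adjusted p = 0.182) and −0.38 for PRDX2 (limma adjusted p = 0.209), and WT vs CON was 1.93 for GPX7 (limma adjusted p = 0.171), so these calls were lost. With median centring, or with both channels required to pass the limit, neither gene could be tested. The limma fit did not call PRDX4 (0.70 ± 0.17 in KD1 vs CON, adjusted p = 0.148), a peroxiredoxin of the endoplasmic reticulum, and SOD3, the extracellular superoxide dismutase, was at −1.18 ± 1.07 and could not be tested.

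**Figure D4:**
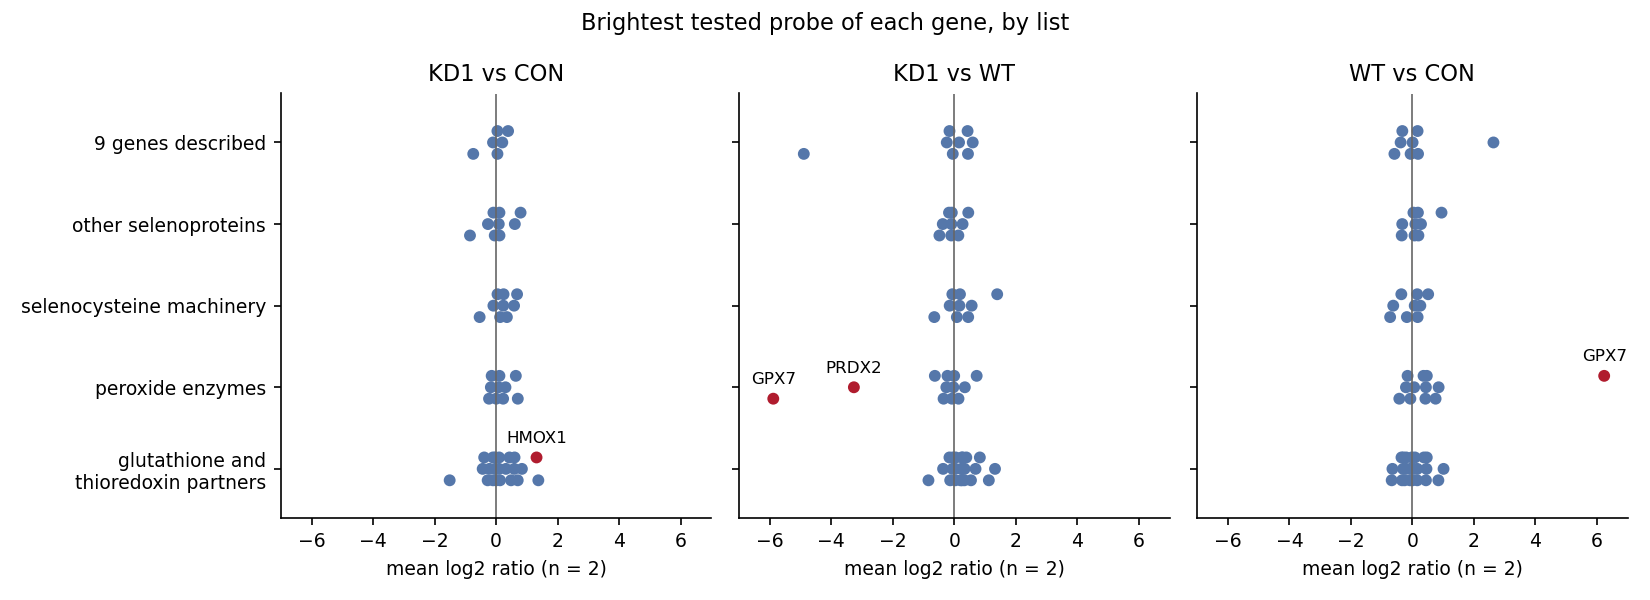
Mean log2 ratio over 2 replicates (x axis) of the brightest probe of each tested gene, by list (y axis; points are offset for legibility), in the 3 comparisons. Red points with names are genes of the 4 other lists past an adjusted p of 0.05 by limma, which are HMOX1 in KD1 vs CON, GPX7 and PRDX2 in KD1 vs WT and GPX7 in WT vs CON; the 9 genes described were not marked by test.

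The list of glutathione and thioredoxin partners, which also holds oxidative stress genes such as HMOX1, held 1 call. Of 23 genes 22, 23 and 23 could be tested, and limma called 1 higher in KD1 vs CON and 0 in each of the comparisons with WT, beside 1.81%, 1.09% and 1.42% over all probes. At an unadjusted p under 0.05 were 5, 5 and 1 of them, beside 17.2%, 17.2% and 16.5%, and their median log2 ratios were 0.09, 0.24 and −0.02. The called gene was HMOX1, heme oxygenase 1, a target of the oxidative stress factor NRF2, with signals of 8326 and 16737 in KD1, 4034 and 5707 in CON and 4836 and 8930 in WT. KD1 was highest within each replicate, and replicate 2 was higher than replicate 1 in every culture, so KD1 and WT overlapped. The HMOX1 log2 ratio of KD1 vs CON was 1.31 ± 0.41 (limma adjusted p = 0.0346), and that of KD1 vs WT was 0.83 ± 0.16 (limma adjusted p = 0.137). The HMOX1 call was lost with normexp and loess (limma adjusted p = 0.0843), without a filter (0.0793) and without the replicate block (0.218). NQO1, another NRF2 target, was at 1.24 ± 0.53 in KD1 vs CON and could not be tested. SLC7A11, the cystine importer that feeds glutathione synthesis, was at 1.37 ± 0.77 (limma adjusted p = 0.112) on its brightest probe. A dimmer SLC7A11 probe was at 1.17 ± 0.79 and could not be tested there, and another was at background in every culture. MSRA, a methionine sulfoxide reductase, was at −1.51 ± 0.86 (limma adjusted p = 0.065) on its brighter probe and at −0.15 ± 0.04 on the other, so its probes disagreed in size.

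The labels were set against marker genes. All 9 rhabdomyosarcoma cell markers on the array were well above background in every measurement of every culture. They were the fusion partners PAX3 and FOXO1, and MYOD1, MYOG, MYF5, DES, CDH15, CHRNA1 and CHRND. MYOG, a factor of muscle differentiation, was the marker that limma called, lower in WT than in CON (−1.73 ± 0.33, adjusted p = 0.0183). This is 1 of 9 markers in WT vs CON, beside 1.42% over all probes. MYF5 went the other way there, at 1.58 ± 0.36 (limma adjusted p = 0.0948). In KD1 vs WT, MYF5 was at −1.92 ± 0.71 (limma adjusted p = 0.0680). The array has no probe across the fusion junction, and PAX3 and FOXO1 probes also read the normal alleles. In KD1 vs CON the 3 PAX3 probes were at −0.42, −0.28 and −0.09 and the FOXO1 probes at −0.42 and −0.39, none of them called by limma. Of 9 markers of other cell types, 5 (CD3E, CD68, PECAM1, KRT18 and COL1A1) were well above background on all measurements of each culture. PTPRC and ALB, which mark leukocytes and hepatocytes, were at background in all 3 cultures. CD3E, also a leukocyte marker, had signals of 57.3 and 48.9 in KD1, 57.6 and 51.7 in CON and 40.0 and 46.5 in WT. The summed signal of these 9 markers was 1942 and 2576 in KD1, 2083 and 2252 in CON and 2547 and 3086 in WT, most of it from PECAM1 and KRT18. CD68 was higher in KD1 than in CON (1.54, limma adjusted p = 0.0219). The epithelial marker EPCAM was well above background on 4 of 8 measurements of WT and on 0 of 8 of either clone. The EPCAM signals of WT were 3.92 in replicate 1 and 164 in replicate 2, whereas SEPP1 and GPX7 were brighter in replicate 1 of WT. KRT18, also epithelial, was brightest in WT in both replicates, with signals of 1347 and 1685 in WT, 687 and 887 in CON and 658 and 700 in KD1, and log2 ratios of −1.14 ± 0.17 in KD1 vs WT (limma adjusted p = 0.0516) and 0.93 ± 0.03 in WT vs CON (limma adjusted p = 0.0814). The part of these markers in the ratios of SEPP1 and GPX7 was not tested.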

How the data were processed

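The authors extracted the 2-color arrays with Agilent Feature Extraction 10.5.1.1 and deposited linear intensity values per spot (background-subtracted, and processed after normalization within the array), a log10 ratio of Cy5 over Cy3, and a series table with the same ratio on the log2 scale, already turned for dye swaps (largest difference 5.35e-06). Positions are on NCBI36. Of 43376 gene spots per array, 71.1% to 73.6% were well above background in Cy3 and 64.4% to 67.8% in Cy5. No spot was saturated. Precision is limited by the 6 RNA extracts behind the 12 arrays.

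Log2 ratios of the processed intensities were taken without outlier spots (95 to 188 per array), turned so that the first culture is the numerator, and averaged over each dye-swap pair. Signals per extract are the same processed intensities, already normalized within each array by the authors, after Aquantile normalization between arrays and averaging over the 4 arrays of an extract. A probe was tested where its signal passed the 99th percentile of 153 negative controls in at least 1 channel on all 4 arrays of a comparison. limma 3.58.1 in R 4.3.3 was fitted to the 6 replicate values. Only 3 extracts stand behind the 3 comparisons of each replicate, so residual degrees of freedom were set to 2. The p-values were 2-sided and adjusted by Benjamini-Hochberg over the probes tested. The replicate number pairs the extracts within each array by construction. The labels call the replicates biological but do not say that they are separate cultures, so p-values measure the spread between these samples. Across probes the 2 replicates correlated with r = 0.701 (KD1 vs CON), 0.390 (comparison of KD1 with WT) and 0.483 (WT vs CON). Tested on simulated ratios of the comparison KD1 vs CON (21925 probes, 200 of them changed by 2 on the log2 scale), the fit recovered 99.7% with 20.6 false calls on average.

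"At least" folds set the mean of the bright culture against, per array, the higher of the lowest signal well above background and the dim probe's own. The brightest probe stood for its gene. The genes, lists and rules were chosen with earlier results of these data known. All 9 genes are named; of the other lists, genes past the threshold, and where fewer than 4 passed, those with the largest absolute ratio in KD1 vs CON until 4 were named. Per-sample columns not matched to a sample: 0. Sequences are from RefSeq and from the deposited probe column.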

Additional observations from a re-analysis of the deposited data

How the results depend on the processing

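The counts of called probes depended on the processing. In KD1 vs CON, KD1 vs WT and WT vs CON, limma called 396, 272 and 377 probes as reported, 26, 1 and 2 with normexp (offset 50) and loess, 236, 95 and 115 with median centring, 394, 259 and 368 from the series table, 253, 185 and 200 with no filter, 151, 163 and 221 with both channels above the limit, and 3944, 4204 and 4265 with the 12 arrays as separate values, which counts arrays of the same extracts as replicates. Without the replicate block, on 1 value per extract, the counts were 201, 126 and 114, and the SEPP1 mean was −2.61, −5.02 and 2.41. The selection criteria gave 239 genes with the limit on every array and 417 with it on at least 1 array. Leaving out a replicate leaves no residual degrees of freedom, so no calls were made. SEPP1 then ranged from −3.23 to −2.45, from −6.16 to −3.62 and from 0.80 to 4.47, and GPX4 from −0.83 to −0.65, from −0.17 to −0.14 and from −0.67 to −0.50. Of the 27 member means, 17 stayed within 1 SD with normexp and loess, where 1 of 3 at 2-fold remained so, and none of the 3 changed sign. The cause of these shifts was not tested. SEPP1 in KD1 and GPX3 in the 3 cultures are limited by background.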
